A study of Rattus norvegicus with 325 samples.

Results

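The genes described here encode 9 enzymes, or enzyme subunits, of the citric acid cycle: Cs, Idh2, Idh3a, Ogdh, Dlst, Sucla2, Sdha, Sdhb and Mdh2. They were picked by gene symbol, not by a measured value. They are 9 of the 17315 gene symbols counted in the series, each is listed once, and all 9 passed the filter on low counts in every muscle. Bulk RNA-seq libraries were made from 4 muscles of untreated male Sprague Dawley rats, an outbred stock: the diaphragm, the main breathing muscle, and 3 hindlimb muscles, namely the gastrocnemius, the soleus and the tibialis anterior. The rats were 6, 9, 12, 18, 21, 24 or 27 months old, and each age was compared with 6 months within a muscle to find out which genes change with age. Of the 325 libraries, the diaphragm, soleus and tibialis anterior had 12 in each age group, apart from 11 in the diaphragm at 9 months and 13 in the tibialis anterior at 21 months. The gastrocnemius had 10, 12, 11, 11, 9, 9 and 11 libraries from the youngest to the oldest age. Muscles of an age were collected on 1 day, and the effects of age and of that day cannot be told apart. The labels do not say which animal a library came from.

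The citric acid cycle runs in the mitochondrial matrix. It oxidises the acetyl groups that come from sugars, fatty acids and amino acids to carbon dioxide, and hands the electrons to the respiratory chain as NADH and reduced flavin. Skeletal muscle uses it to make ATP during sustained work, and slow, fatigue-resistant fibres are rich in mitochondria. Citrate synthase, encoded by Cs, joins acetyl-CoA to oxaloacetate and is widely used as a measure of mitochondrial content. Idh3a encodes the catalytic subunit of the NAD-dependent isocitrate dehydrogenase of the cycle, and Idh2 the mitochondrial NADP-dependent enzyme that acts on the same substrate. Ogdh and Dlst encode the first and second components of the oxoglutarate dehydrogenase complex. Sucla2 encodes the ADP-specific beta subunit of succinyl-CoA synthetase. Sdha and Sdhb encode the flavoprotein and iron-sulphur subunits of succinate dehydrogenase, which is also complex II of the respiratory chain, and Mdh2 encodes mitochondrial malate dehydrogenase, which regenerates oxaloacetate.

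Library totals ran from 17555294 to 85316329 counted reads, with a median of 31879679. The lowest count of any member in any library was 3080 reads (Sucla2) and the highest 209984 reads (Idh2), so that counting error was small beside the spread between rats. The muscle labels were checked with myosin heavy chain genes: Myh7, the slow isoform, had a median over all ages of 47514 CPM (counts scaled to a library of 1000000 reads) in the soleus and 2204 CPM in the tibialis anterior, and Myh4, a fast isoform, 14.2 and 77732 CPM. The running sample numbers in the labels put all gastrocnemius libraries in a series of their own, so for comparisons with the gastrocnemius that series and the muscle cannot be told apart. They put the 12-month libraries of the other muscles in another series, together with 1 library of each of these muscles at 21 months. In bulk tissue, fewer fibres of a kind and less RNA per fibre cannot be told apart.

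Promoter windows of RefSeq (build GRCr8), from 250 bases before to 50 bases after the start of a gene, were matched for 8 of the 9 members, all but Idh3a. Several short motifs were searched on both strands in these windows and in all 33469 promoter windows of the table. The GC box GGGCGG was in 6 of the 8 windows (Cs, Idh2, Ogdh, Dlst, Sucla2 and Mdh2) and in 33.1% of all windows. The letters CCAAT were in 4 of the 8 (Cs, Idh2, Ogdh and Sdha) and in 37.5% of all windows. TGCGCA, the core of the sequence bound by NRF-1, a regulator of many mitochondrial genes, was in 2 of the 8 (Sdha and Mdh2) and in 7.24% of all windows. AAGGTCA, the half-site of oestrogen-related receptors, was in none of the 8 windows and in 4.61% of all windows. A match is a description of the letters only. The 150 bases before the start are shown, 5′ to 3′, for 4 of the members that moved together across libraries, each with a motif there. They are also shown for Sucla2, which moved apart from them in the diaphragm. Dlst, Sdhb and Mdh2, which are not shown, hold none of the motifs in these 150 bases. Capitals mark the motifs, of which GGGCGG reads CCGCCC and CCAAT reads ATTGG on the opposite strand.
Cs (chr7:1348239-1348388, forward strand): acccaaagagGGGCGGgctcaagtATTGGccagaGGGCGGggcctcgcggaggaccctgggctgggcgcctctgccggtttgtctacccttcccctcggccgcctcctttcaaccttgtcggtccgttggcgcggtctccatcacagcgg
Idh2 (chr1:143467249-143467398, reverse strand): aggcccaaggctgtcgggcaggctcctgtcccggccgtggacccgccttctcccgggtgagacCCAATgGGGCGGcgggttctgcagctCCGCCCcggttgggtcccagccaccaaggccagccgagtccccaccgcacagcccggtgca
Ogdh (chr14:85363881-85364030, forward strand): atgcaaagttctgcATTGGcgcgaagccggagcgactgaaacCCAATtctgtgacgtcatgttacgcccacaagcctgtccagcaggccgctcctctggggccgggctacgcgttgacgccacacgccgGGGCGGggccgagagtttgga
Sdha (chr1:30764403-30764552, forward strand): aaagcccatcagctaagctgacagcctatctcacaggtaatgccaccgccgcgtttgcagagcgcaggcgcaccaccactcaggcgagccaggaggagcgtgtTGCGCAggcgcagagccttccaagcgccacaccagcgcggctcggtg
Sucla2 (chr15:55161744-55161893, forward strand): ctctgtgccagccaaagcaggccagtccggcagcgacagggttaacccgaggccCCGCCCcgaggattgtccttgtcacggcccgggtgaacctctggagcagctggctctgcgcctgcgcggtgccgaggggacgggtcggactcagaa

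In young adult muscle, at 6 months, the members differed between muscles in different orders. Idh3a differed most. Its level ran from 195 to 224 CPM (median 211) in the soleus, from 418 to 515 (median 481) in the diaphragm, from 609 to 820 (median 717) in the gastrocnemius and from 933 to 1067 (median 1012) in the tibialis anterior. No 2 muscles overlapped, and the share of all genes separated in this way was not computed. The level in the tibialis anterior was 4.84-fold that in the soleus (limma, adjusted p = 1.1e-91). Sucla2 had the same order of medians, with 217 CPM in the soleus (201 to 230), 350 in the diaphragm (314 to 383), 426 in the gastrocnemius (202 to 502) and 540 in the tibialis anterior (500 to 594), and was 2.51-fold higher in the tibialis anterior than in the soleus (adjusted p = 4.8e-36). The diaphragm and gastrocnemius did not differ in Sucla2 beyond their spread (adjusted p = 0.17).

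Idh2 was ordered differently, with the diaphragm and soleus high. It stood at 1935 CPM in the diaphragm (1848 to 2208) and 1818 CPM in the soleus (1725 to 2132), against 1094 CPM in the gastrocnemius (914 to 1421) and 1081 CPM in the tibialis anterior (972 to 1168). The first 2 muscles overlapped, as did the last 2, and no library of the first pair overlapped with one of the second. How many of all genes separate these pairs was not computed. Idh2 was 1.71-fold higher in the soleus than in the tibialis anterior (adjusted p = 4.2e-24). Because both genes were counted in the same libraries, the ratio of Idh2 to Idh3a reads can be compared between muscles: it lay between 7.96 and 9.96 in the soleus, 3.69 and 4.99 in the diaphragm, 1.25 and 2.33 in the gastrocnemius and 0.92 and 1.25 in the tibialis anterior. This ratio of reads depends on gene length and is no ratio of molecules.

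The other members spanned less. Cs, Dlst, Sdha and Mdh2 were lowest in the soleus, with medians of 552, 254, 579 and 603 CPM, and their medians in the remaining muscles were 736 to 810, 333 to 382, 831 to 938 and 909 to 1023 CPM. Sdhb, in contrast to Sdha, was lowest in the tibialis anterior (304 CPM) and gastrocnemius (319 CPM), higher in the soleus (360 CPM) and highest in the diaphragm (420 CPM). As a result the ratio of Sdha to Sdhb reads had a median of 1.65 in the soleus, 1.99 in the diaphragm, 2.83 in the tibialis anterior and 2.95 in the gastrocnemius. Ogdh was highest in the diaphragm (1706 CPM), and its medians in the limb muscles were 1284 to 1462 CPM.

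A difference was called at an adjusted p under 0.05 and a size over 1.5-fold, in a model over all 325 libraries. At 6 months 6 of the 9 members were called between gastrocnemius and soleus (45.4% of all 12784 genes tested were called), 4 between soleus and tibialis anterior (42.9%), 3 between diaphragm and tibialis anterior (35.1%), 2 between diaphragm and gastrocnemius (37.3%) and 2 between diaphragm and soleus (23.9%). None was called between gastrocnemius and tibialis anterior by limma or by edgeR (17.3%), where 2 members, Idh3a and Sucla2, passed the adjusted p alone. Shares near these percentages set the members no further apart than other genes. Where libraries were scaled by their total count alone, the tibialis anterior and gastrocnemius moved down against the diaphragm by a median of 0.44 log2 units over all genes. Dlst and Mdh2, which the main scaling put lower in the diaphragm, then stood higher there than in either of them. Against the soleus the gastrocnemius moved down by 0.40 and the tibialis anterior by 0.41. The lower soleus levels of Cs, Dlst, Sdha and Mdh2 then lay nearer to those of both muscles. Still, 6 members stayed lower in the soleus than in the tibialis anterior. Folds between the soleus and these muscles, given above, are those of the main scaling.

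**Figure D1:**
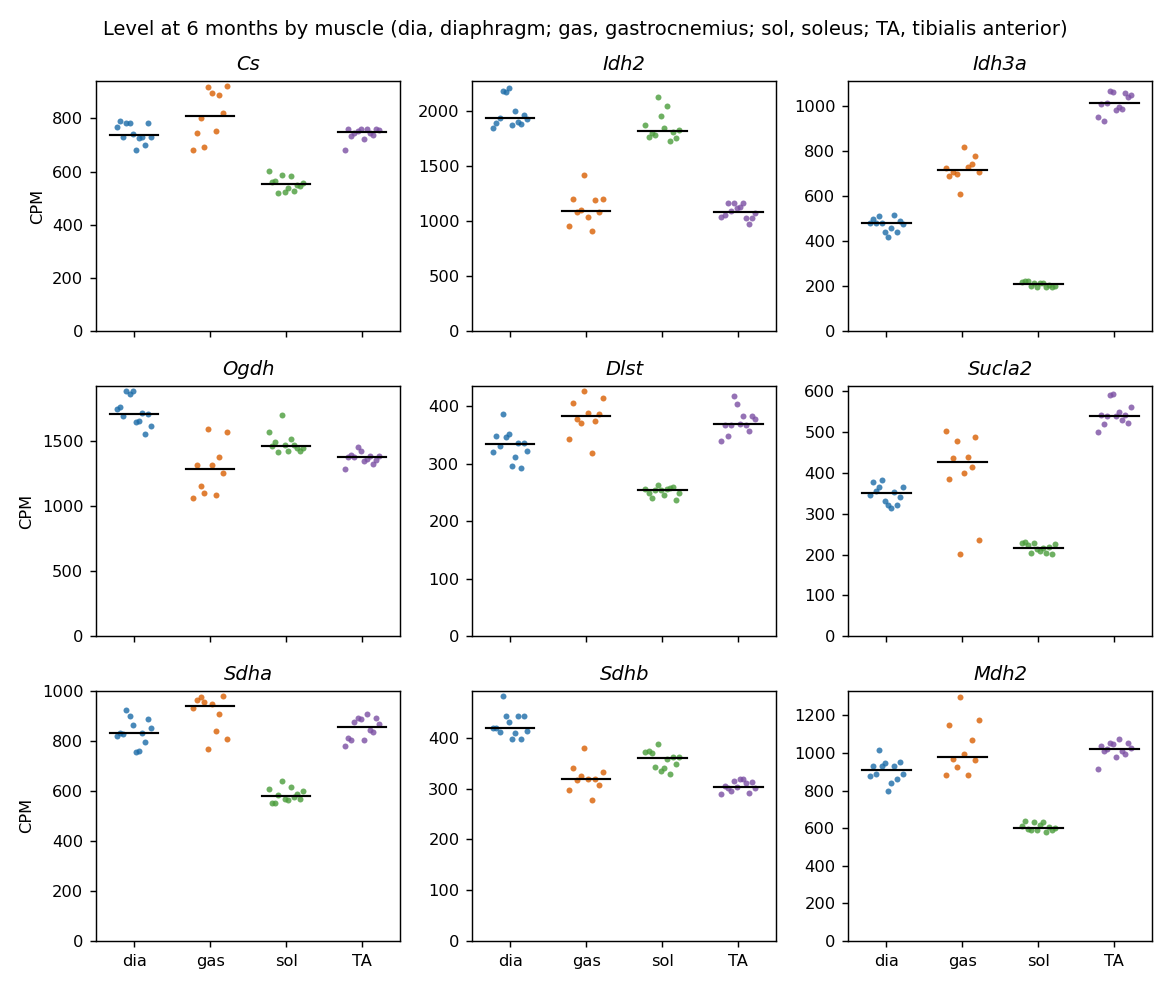
Level of the 9 members at 6 months, in CPM (linear axes from 0), in each library (points) of the diaphragm, soleus and tibialis anterior (n = 12 each) and the gastrocnemius (n = 10); bars are medians. Idh3a separates all 4 muscles, from a median of 211 CPM in the soleus to 1012 CPM in the tibialis anterior, whereas Idh2 is high in the diaphragm and soleus.

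The 3 limb muscles carried less mRNA of most members at 27 than at 6 months, and the diaphragm did not. With libraries scaled by the trimmed mean of M values (TMM), which centres the change of most genes on 0, 8 members fell in the gastrocnemius and all 9 in both the soleus and the tibialis anterior at an adjusted p under 0.05, while 28.9%, 26.4% and 36.5% of all genes fell. The members' median change was -0.50 in the gastrocnemius and soleus and -0.24 in the tibialis anterior on the log2 scale, beside 0.04, 0.02 and 0.02 over all genes. With total-count scaling the median of all genes rose by 0.28, 0.15 and 0.32 in these muscles, and Dlst and Sucla2 in the gastrocnemius and Cs, Idh2, Ogdh, Dlst and Sdhb in the tibialis anterior then had changes above 0. Relative to the median gene all 9 members stayed lower in each limb muscle. This follows from a scaling that shifts all genes nearly alike and is no separate check. Few of the falls passed 1.5-fold. Idh3a and Mdh2 were called lower in the gastrocnemius (7.76% of all genes were called lower), Sucla2 and Sdhb in the soleus (5.78%), and Idh3a and Sucla2 in the tibialis anterior (10.4%). Each of these 6 results also had a falling trend over the 7 ages by the Bayesian information criterion. Of all genes 8.94%, 5.17% and 10.4% in these muscles had a falling trend together with a call at any age.

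The soleus fall was shared by nearly every old animal. In 11 of the 12 libraries at 27 months each of the 9 members was below its lowest 6-month library. The exception was replicate 9, in which only Idh3a and Sucla2 were below that level. Sdhb ran from 329 to 387 CPM (median 360) at 6 months and from 165 to 334 CPM (median 222) at 27 months, a log2 change of -0.66 ± 0.066 (SE, limma, adjusted p = 3.0e-14). Mdh2 went from 582 to 639 CPM (median 603) to 301 to 605 CPM (median 413), a change of -0.57 ± 0.063 (adjusted p = 1.0e-12). Ogdh went from 1413 to 1694 CPM (median 1462) to 774 to 1466 CPM (median 963), a change of -0.54 ± 0.058 (adjusted p = 4.8e-13). In both genes 11 of 12 old libraries lay below all young ones, and the highest old library was replicate 9. Without it, 4 members were called, with Ogdh at -0.59 and Mdh2 at -0.63 added. Sucla2, at 201 to 230 CPM (median 217) and 88.6 to 197 CPM (median 132), had no overlap and the largest change, -0.69 ± 0.073 (adjusted p = 3.0e-13). Idh2 changed by -0.50 ± 0.070, Sdha by -0.38 ± 0.057, Cs by -0.36 ± 0.049, Dlst by -0.31 ± 0.050 and Idh3a by -0.30 ± 0.041.

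In the tibialis anterior the fall was uneven, both between genes and between libraries. Idh3a ran from 933 to 1067 CPM (median 1012) at 6 months and from 362 to 908 CPM (median 582) at 27 months. Every old library lay below every young one, and the change was -0.79 ± 0.10 (adjusted p = 8.5e-11). Sucla2 went from 500 to 594 CPM (median 540) to 247 to 471 CPM (median 309), again without overlap, with a change of -0.71 ± 0.081 (adjusted p = 1.3e-12). These were 2 of 9 members without overlap, where 10.3% of all genes had all 27-month libraries below all 6-month libraries. The remaining members overlapped. Cs, for example, went from 683 to 761 CPM (median 751) to 470 to 786 CPM (median 652), with 7 old libraries below and 2 above the whole young range. Taken per library, 5 of the 12 old libraries had all 9 members below the young range and 1 had 8, whereas the other 6 had 2 to 5.

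In the gastrocnemius Mdh2 went from 882 to 1296 CPM (median 981) to 409 to 855 CPM (median 664), the only member there without overlap (7.29% of all genes), with a change of -0.71 ± 0.10 (adjusted p = 4.7e-09). Idh3a fell by 0.65 ± 0.092 on the log2 scale (adjusted p = 8.6e-09), from a median of 717 to 479 CPM, and 9 of 11 old libraries lay below the young range. Cs fell by 0.56 ± 0.069 (adjusted p = 2.0e-10), from a median of 810 to 549 CPM, with 10 of 11 old libraries below it. In the soleus, Idh3a and Sucla2 were the members without overlap (3.16% of all genes). Sucla2 in the gastrocnemius was the 1 limb result that missed the adjusted p (-0.17 ± 0.13, adjusted p = 0.26, 95% interval -0.43 to 0.087). Its 6-month libraries were split: replicates 4 and 9 stood at 202 and 236 CPM and the other 8 at 386 to 502 CPM. Without replicate 4 the change was -0.29 (adjusted p = 0.039).

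**Figure D2:**
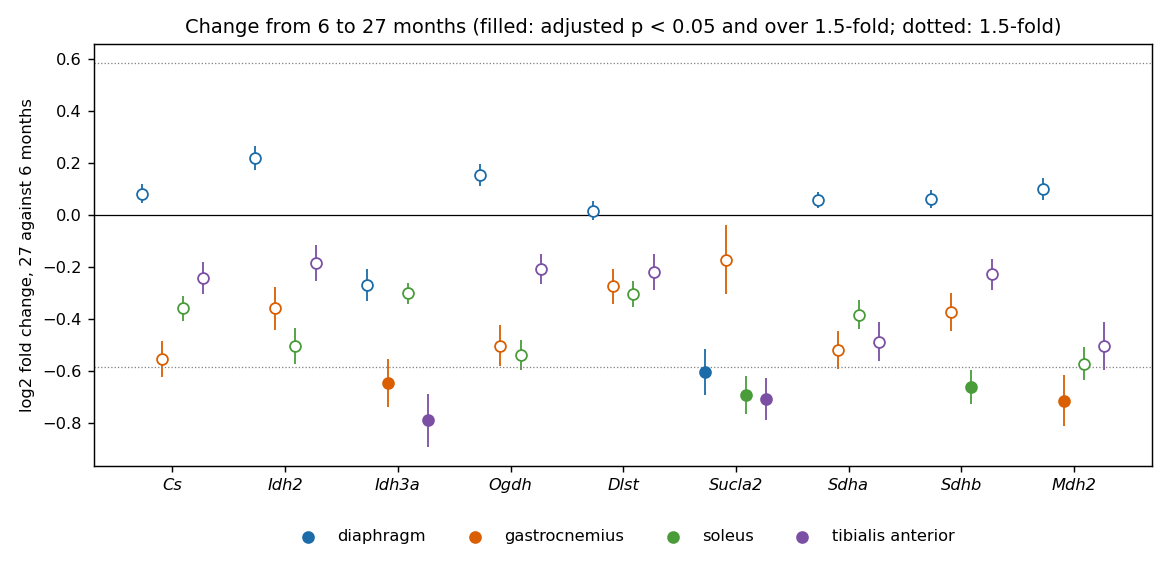
Change of each member from 6 to 27 months in the 4 muscles, as log2 fold change ± SE on the TMM scale (limma; filled points passed an adjusted p under 0.05 and 1.5-fold, dotted lines mark 1.5-fold). Limb muscle points lie below 0 and most diaphragm points at or above it, apart from Sucla2 and Idh3a; with total-count scaling 2 gastrocnemius and 5 tibialis anterior points turn to above 0.

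In the diaphragm the members' median change was 0.06, beside 0.00 over all genes. Idh2, Ogdh and Mdh2 rose at an adjusted p under 0.05 (20.3% of all genes rose), and Sucla2 and Idh3a fell (24.7% fell). Idh2 ran from 1848 to 2208 CPM (median 1935) at 6 months and from 1941 to 2764 CPM (median 2356) at 27 months, and 8 of 12 old libraries lay above the young range, with a change of 0.22 ± 0.047 (adjusted p = 7.7e-05). Ogdh went from 1554 to 1880 CPM (median 1706) to 1676 to 2132 CPM (median 2011), a change of 0.15 ± 0.042 (adjusted p = 0.0016). Mdh2 changed by 0.10 ± 0.042 (adjusted p = 0.042). Cs, Dlst, Sdha and Sdhb changed by 0.02 to 0.08 and did not pass, and the 95% interval of Cs was 0.011 to 0.15. Each of these rises was below 1.5-fold. CPM values were set on a common scale over all libraries, on which diaphragm changes are 0.041 higher than in the fit of that muscle alone.

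Sucla2 was the only diaphragm member called (4.25% of all genes were called lower, and 3.69% were called lower at any age with a falling trend, which Sucla2 also had). It ran from 314 to 383 CPM (median 350) at 6 months and from 162 to 332 CPM (median 234) at 27 months, and 11 of 12 old libraries lay below the young range, where 1.87% of all genes had no overlap at all. The change was -0.61 ± 0.089 (adjusted p = 4.3e-08), a size close to the 1.5-fold line. By edgeR it was -0.58 and by DESeq2 -0.57, both past the adjusted p and both short of that line. Idh3a fell by 0.27 ± 0.061 (adjusted p = 1.7e-04), from a median of 481 to 385 CPM, with 8 of 12 old libraries below the young range.

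The 2 diaphragm members that fell also followed a difference between libraries within an age. The leading axis of the spread between gastrocnemius libraries of the same age had Cep290 and Xirp2 at its high end and the ribosomal Rn28s at its low end. It was computed over genes with a mean log2 CPM over 2, the members among them. The members were left out when this axis was used to score the diaphragm libraries. Across 83 diaphragm libraries, after removal of age means, Sucla2 had a Pearson correlation of 0.90 with this score and Idh3a of 0.67, while Mdh2 had -0.60, Ogdh -0.43 and Cs -0.24. The score had a median of 2.3 at 6 months (range 0.71 to 4.9) and -14.5 at 27 months (range -26.3 to 5.3), and 10 of the 12 old libraries were below every young one. With the score as a covariate, a choice made after the data were seen, the changes at 27 months were -0.22 for Sucla2 (adjusted p = 7.3e-05), -0.08 for Idh3a (adjusted p = 0.25), 0.14 for Idh2 (adjusted p = 0.022), 0.07 for Ogdh (adjusted p = 0.17) and -0.01 for Mdh2 (adjusted p = 0.79). What the score stands for was not tested. At 18 months diaphragm replicate 11 had the lowest score of all libraries (-56.3) and the lowest Sucla2 of the muscle (111 CPM).

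**Figure D3:**
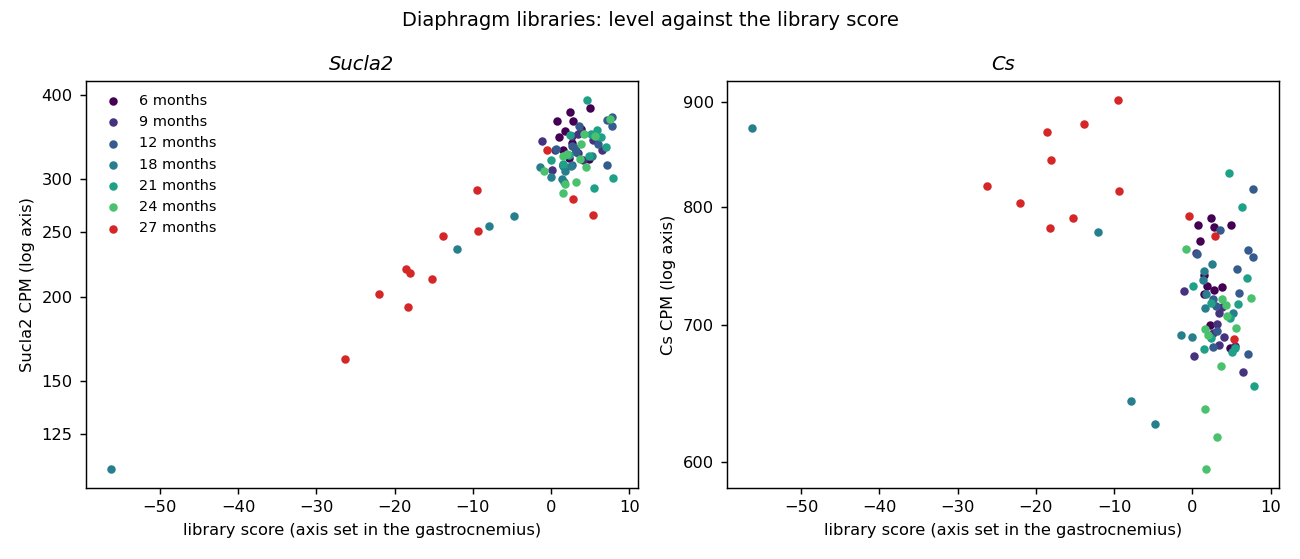
Sucla2 (left) and Cs (right) in CPM (log axes) against the library score set in the gastrocnemius, for the 83 diaphragm libraries coloured by age. Sucla2 descends with the score, with 10 of the 12 libraries of 27 months below every library of 6 months on the score and replicate 11 of 18 months at -56.3, whereas Cs does not descend with it.

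The score followed Sucla2 most closely in the soleus and gastrocnemius too, and other members in the tibialis anterior. Its correlation with Sucla2 was 0.47 for soleus and 0.28 for tibialis anterior libraries. Correlations of -0.50 for Mdh2, -0.48 for Cs, -0.47 for Ogdh and -0.41 for Sdhb were found in the tibialis anterior, and in the soleus the other 8 members had values from -0.23 to -0.0020. For the gastrocnemius, scored with the axis of the diaphragm and so on a score of its own, it was 0.77 for Sucla2, -0.56 for Mdh2 and -0.52 for Ogdh, and the 2 gastrocnemius libraries of 6 months with low Sucla2 had the lowest scores of their group, -39.7 and -25.9. With the score as a covariate Sucla2 fell by 0.39 in the gastrocnemius (adjusted p = 1.2e-04), by 0.59 in the soleus and by 0.64 in the remaining muscle. All 9 members then passed the adjusted p as lower in each limb muscle.

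Whether the change from 6 to 27 months differed between muscles was tested directly, as a difference of changes in the model over all libraries. Between diaphragm and gastrocnemius 5 members were called, all higher in the diaphragm (21.6% of all genes were called in either direction): Mdh2 with a difference of 0.86 (95% interval 0.64 to 1.09, adjusted p = 1.1e-11), Ogdh with 0.71, Cs with 0.69, Idh2 with 0.63 and Sdha with 0.63. Between diaphragm and soleus 4 were called (11.9%): Sdhb and Idh2 with 0.78 each, Ogdh with 0.75 and Mdh2 with 0.73 (0.52 to 0.94, adjusted p = 3.9e-09). Between diaphragm and tibialis anterior 2 were called (20.3%), Mdh2 with 0.65 and Sdha with 0.60. Mdh2 was thus called against each limb muscle. At the adjusted p alone 8, 7 and 8 members had a change higher in the diaphragm than in the gastrocnemius, soleus and tibialis anterior. The share of all genes at the adjusted p alone was not computed for these tests. With the library score as a covariate the counts past 1.5-fold were 0, 4 and 1, the last being Idh3a. The 5 differences from the gastrocnemius were then 0.41 to 0.58, all past the adjusted p. That fit gave the score the same slope in every muscle, although members followed it differently between muscles. It also joined the gastrocnemius score, set in the diaphragm, to the score of the other muscles. Differences between muscles with this covariate are therefore not a like-for-like adjustment. With total-count scaling the counts were 1 (Sucla2, lower in the diaphragm), 3 and 0, where 3542, 1782 and 3686 of 12784 genes were called. With the covariate the share of all genes was not computed.

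Sucla2, and Idh3a against the soleus alone, were the exceptions. The change of Sucla2 in the diaphragm differed from that in the soleus by 0.14 (95% interval -0.10 to 0.39, adjusted p = 0.40) and from that in the tibialis anterior by 0.15 (-0.10 to 0.41, adjusted p = 0.33). With total-count scaling both differences were below 0, and with the library score as a covariate they were 0.33 (adjusted p = 0.0032) and 0.31 (adjusted p = 0.0048). From the gastrocnemius it differed by -0.39 (adjusted p = 0.0089), the change being lower in the diaphragm, and by 0.10 with that covariate. Idh3a differed by 0.09 between diaphragm and soleus (-0.11 to 0.29, adjusted p = 0.54), a difference also below 0 with total-count scaling. Against the gastrocnemius and the tibialis anterior the change of Idh3a was higher in the diaphragm, by 0.43 (adjusted p = 4.3e-04) and 0.57 (adjusted p = 1.2e-06). Among the limb muscles all differences stayed under 1.5-fold by limma and by edgeR. These were between gastrocnemius and soleus (14.5% of all genes called), gastrocnemius and tibialis anterior (7.32%) and soleus and tibialis anterior (15.8%). At the adjusted p alone 4, 3 and 4 members passed, as many as at an unadjusted p under 0.05. Those percentages are past 1.5-fold too, and the share at the adjusted p alone was not computed. Sdhb fell more in the soleus than in the tibialis anterior (difference -0.44, adjusted p = 4.7e-06) and Idh3a less (0.48, adjusted p = 4.2e-05).

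Most of the limb falls came after 21 months. Steps between ages were tested within each muscle only, and whether their timing differed between muscles was not tested. At 9 months the changes lay between -0.13 and 0.13, with no adjusted p under 0.12. At 12 months 1 passed, Idh3a in the soleus (-0.18 ± 0.041, adjusted p = 0.0044, 161 of 12175 genes lower). Idh3a in the soleus kept to this earlier course, at -0.23 ± 0.041 by 18 months and -0.27 ± 0.041 by 21 months.

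At 18 months a few members were lower than at 6 months and some of them were not at 21 months. In the diaphragm 3 passed the adjusted p (13.7% of all genes were lower): Sucla2 at -0.38 (adjusted p = 0.0014), Idh3a at -0.30 (adjusted p = 2.6e-04) and Sdhb at -0.12 (adjusted p = 0.012). At 21 months these stood at -0.06, -0.11 and -0.08, with adjusted p from 0.13 to 0.76. Without replicate 11 of 18 months, the library with the lowest score, Sucla2 changed by -0.25 (adjusted p = 0.0031) and Idh3a by -0.22 (adjusted p = 8.2e-04). In the tibialis anterior Sucla2 changed by -0.34 at 18 months (adjusted p = 6.5e-04, 17.7% of all genes lower) and by -0.05 at 21 months (adjusted p = 0.67). The score had a median of -10.4 (-22.5 to 2.8) in its 18-month and 3.7 (0.051 to 5.4) in its 21-month libraries. With the score as a covariate the 18-month change of Sucla2 was -0.21 (adjusted p = 0.088) there and -0.16 (adjusted p = 0.0047) in the diaphragm. Sucla2 in the soleus (-0.19, adjusted p = 0.049, 13% of all genes lower) and Cs in the gastrocnemius (-0.20, adjusted p = 0.041, 6.14%) also passed at 18 months, and with that covariate Sucla2 in the soleus changed by 0.0040 (adjusted p = 0.98). At 21 months Cs (-0.15) and Sdhb (-0.19) passed in the soleus beside Idh3a, where 887 of 12175 genes were lower at the adjusted p.

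At 24 months 8 members were lower than at 6 months in the gastrocnemius (27.9% of all genes), 6 in the soleus (16.1%), 6 in the tibialis anterior (27.7%) and 3 in the diaphragm (5.33%) at the adjusted p. By total-count scaling these counts were 2, 5, 0 and 1. The tibialis anterior count was 2 without replicate 6 of 24 months, in which Idh3a stood at 342 CPM. Mdh2 in the gastrocnemius, at -0.62 ± 0.10, was the only member called before 27 months.

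In the gastrocnemius 8 members fell between 21 and 24 months (17.1% of all genes fell). Mdh2 fell by 0.45 ± 0.11 (adjusted p = 8.7e-04) and Sdha by 0.35 ± 0.079 over these 3 months. From 24 to 27 months the gastrocnemius changes were -0.19 to -0.02, with adjusted p from 0.10 to 0.93. In the soleus 8 members fell between 24 and 27 months (17.6% of all genes). Among them were Sucla2 by 0.53 ± 0.073, Idh2 by 0.37 ± 0.070, Sdhb by 0.35 ± 0.066 and Mdh2 by 0.32 ± 0.062. Idh3a, at -0.08 ± 0.041, did not pass. In the tibialis anterior 5 members fell over the same interval (25.2%), led by Sucla2 at -0.51 ± 0.081 and Idh3a at -0.46 ± 0.10. In the diaphragm 7 members rose over that interval (16.2% of all genes rose), with Ogdh at 0.23 ± 0.042 and Mdh2 and Idh2 at 0.21 each, while Sucla2 fell by 0.50 ± 0.089. Fits of a logistic course put the midpoint of the falling members after 21 months in 5 gastrocnemius, 8 soleus and 7 tibialis anterior cases, where 10.2%, 11.1% and 18.7% of all genes had such a course, and Sucla2 had it in the diaphragm (8.33%). A straight line was the better description of 3, 1 and 1 further members of these muscles. In the diaphragm Cs, Idh2, Ogdh and Sdhb had a late rising course without a call, and Idh3a a falling line. The share of all genes with such a rise was not computed. Midpoints of Ogdh, Sdhb and Mdh2 in the soleus and of every logistic course in the diaphragm lay at 27 months. This was the highest age tried, so the fit did not place them.

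**Figure D4:**
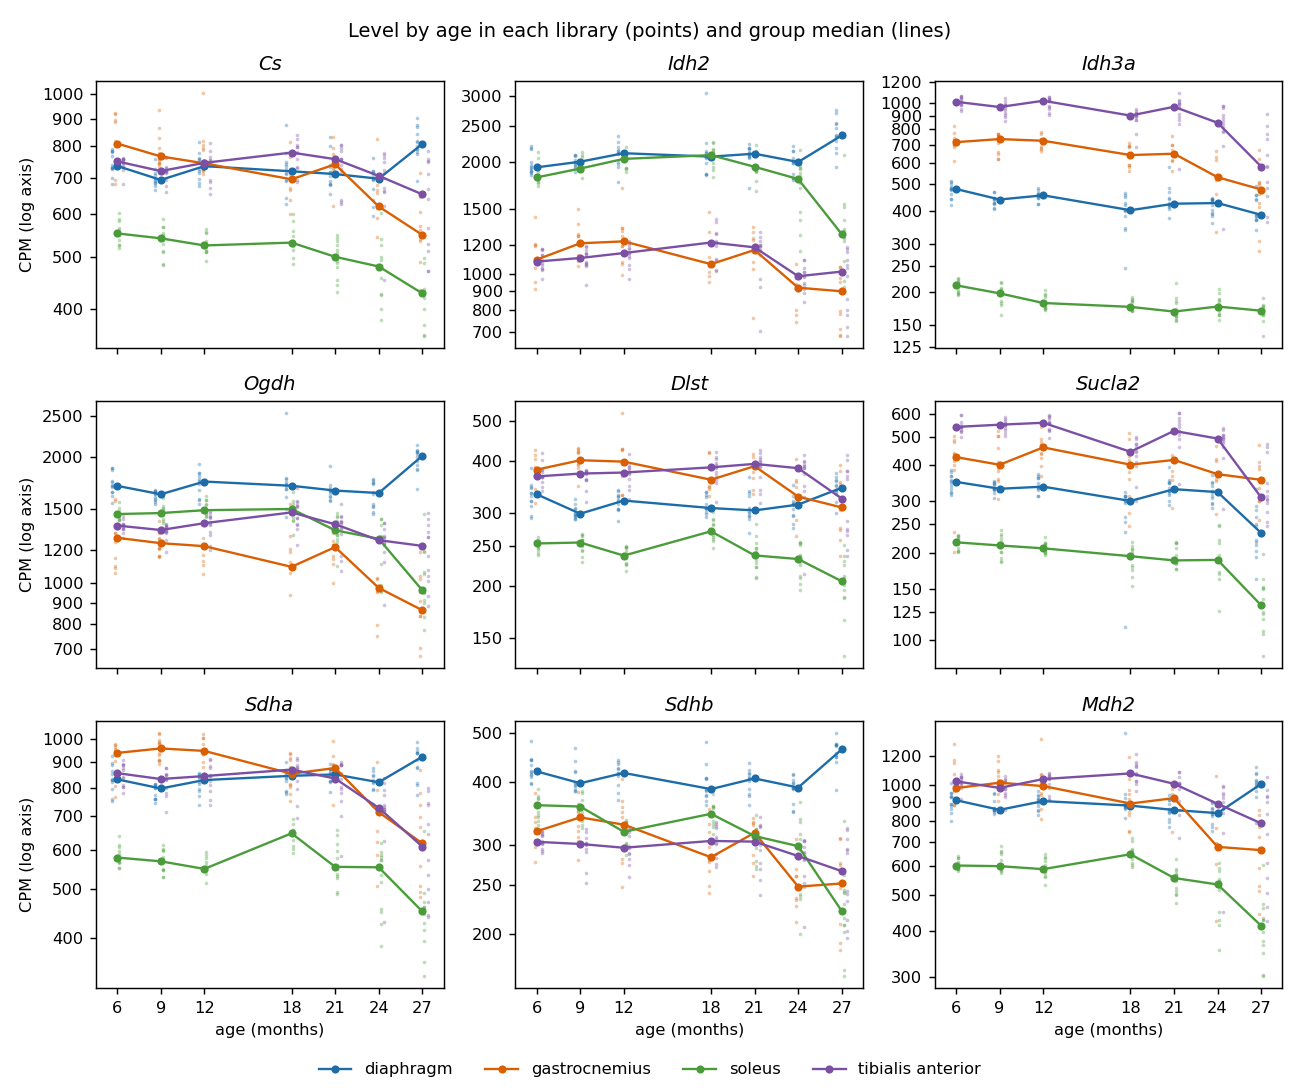
Level of each member in CPM (log axes) at the 7 ages; points are libraries and lines join the group medians of the 4 muscles. Most limb lines turn down after 21 or 24 months, for example Mdh2 in the soleus from 603 CPM at 6 months to 413 CPM at 27 months, while diaphragm lines end level or higher except for Sucla2 and Idh3a.

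The partner subunits of the same enzymes were looked at from a list of 9 further subunits of the cycle. The strong muscle pattern of Idh3a was not shared by its partners: Idh3B (as spelled in the files) was 1.52-fold and Idh3g 1.2-fold higher in the tibialis anterior than in the soleus at 6 months, beside 4.84-fold for Idh3a. Of the partners of Sucla2, Suclg1, the alpha subunit, was 2.02-fold higher in the tibialis anterior, and Suclg2, the GTP-specific beta subunit, was at 116 CPM there and 123 CPM in the soleus (adjusted p = 0.071). Dld, the dihydrolipoamide dehydrogenase that the oxoglutarate and pyruvate dehydrogenase complexes share, was 2.13-fold higher in the tibialis anterior.

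At 27 months these partners moved in different ways. In the tibialis anterior Idh3a changed by -0.79, Idh3B by -0.41 and Idh3g by -0.42, whereas in the gastrocnemius Idh3g (-0.76 ± 0.094) was called along with Idh3a. All 4 subunits of succinate dehydrogenase fell in each limb muscle, from -0.23 (Sdhb in the tibialis anterior) to -0.66 (Sdhb in the soleus), and in the diaphragm they changed by -0.05 to 0.06 with adjusted p from 0.12 to 0.73. In the diaphragm Suclg1 (-0.01 ± 0.034) and Suclg2 (-0.07 ± 0.041) did not pass where Sucla2 fell, and Dld changed by -0.54 ± 0.099 (adjusted p = 4.3e-06), next to Sucla2 in size. Fh, the fumarase of the cycle, fell by 0.40, 0.47 and 0.39 on the log2 scale in the gastrocnemius, soleus and tibialis anterior and changed by -0.06 in the diaphragm (adjusted p = 0.36). Over the whole list, 7, 8 and 8 of the 9 subunits fell in the gastrocnemius, soleus and tibialis anterior, and 1 fell in the diaphragm. Called lower were Idh3g in the gastrocnemius, Sdhc (-0.61) and Dld (-0.63) in the soleus and Dld (-0.81) in the tibialis anterior. Ogdhl, a paralogue of Ogdh, was called higher in the diaphragm (1.13 ± 0.24).

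Across rats of 1 age, 7 of the members moved together. The correlation between pairs of Cs, Idh2, Ogdh, Dlst, Sdha, Sdhb and Mdh2, after removal of age means from log2 CPM, had a median over 21 pairs of 0.65 over the 83 diaphragm libraries, 0.72 over the 73 of the gastrocnemius, 0.86 over the 84 of the soleus and 0.90 over the 85 of the tibialis anterior. This set of 7 was made by leaving out Idh3a and Sucla2. In the diaphragm the pair left out stood apart: they correlated with each other at 0.80, and Sucla2 with Cs only at 0.06. In the gastrocnemius Sucla2 correlated with Cs at 0.04 but with Sdha at 0.66 and Idh3a at 0.62. Idh3a there correlated with Sdha at 0.77 and Cs at 0.69. Correlations of Idh3a in the soleus ran from 0.20 (Idh2) to 0.54 (Cs). In the tibialis anterior Idh3a and Sucla2 correlated at 0.85 and joined the rest apart from Idh2, with which they had 0.37 and 0.30. These values describe points that share library scaling and depth. In the soleus and tibialis anterior the mean of the members followed the leading axis of each muscle's own library spread, with correlations of -0.93 and 0.85. In the diaphragm and gastrocnemius the values were 0.25 and -0.18. Each axis was signed so that the weight of Cep290 was positive, and the members were among the genes it was computed from.

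**Figure D5:**
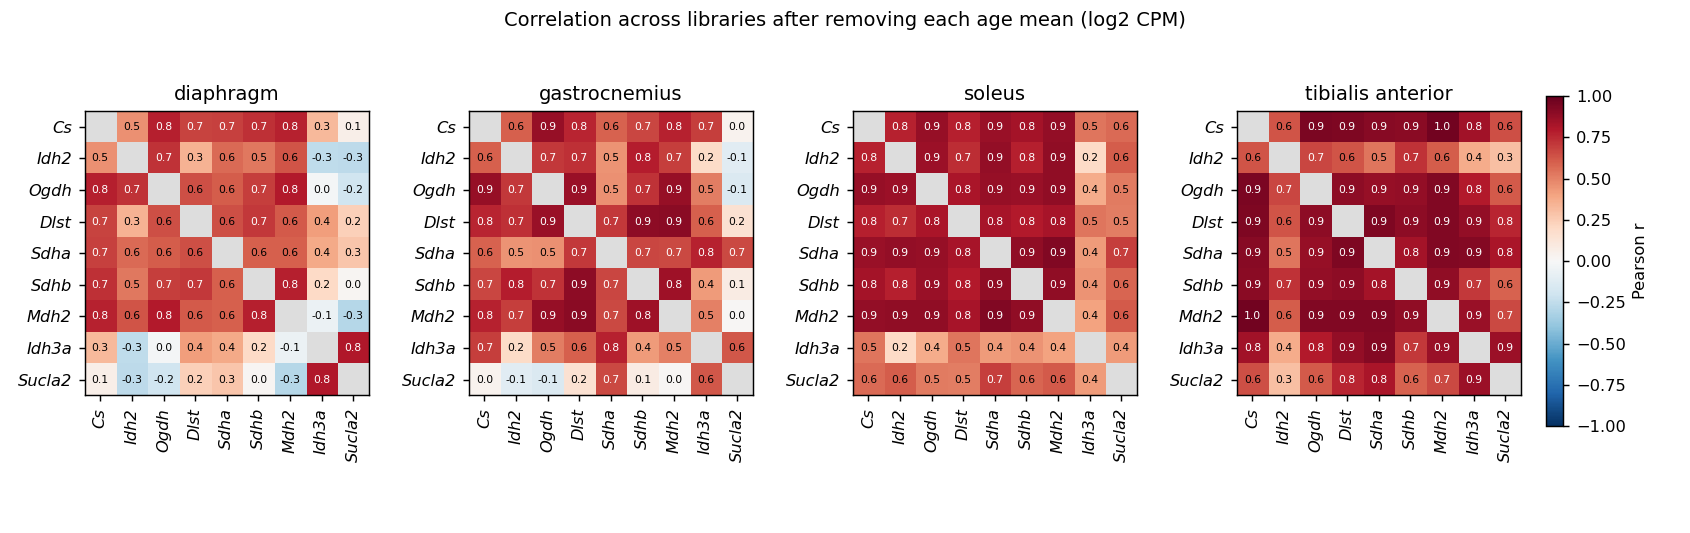
Pearson correlation between members across libraries of each muscle after removal of age means (log2 CPM; colour from -1 to 1; 83, 73, 84 and 85 libraries from left to right). The 7 members listed first correlate positively with each other in every muscle, with a lowest value of 0.35 (Idh2 and Dlst in the diaphragm). Idh3a and Sucla2 in the last rows pair with each other at 0.80 in the diaphragm. In the tibialis anterior Idh3a correlates with Cs at 0.84, above Idh2 with Cs at 0.63.

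The genes most like the members over the 28 muscle-by-age means were sought among all genes. For the mean of the members, each centred and scaled, Pearson correlations were highest for Ndufa9 (0.99), Gnpat, Akap1, Nudt13 and Grtp1 (0.97 to 0.98). That mean does not stand for each member: Mdh2, Cs and Sdha correlated with it at 0.95 to 0.96, but Sdhb at 0.63, Ogdh at 0.57 and Idh2 at 0.08. With muscle means removed, so that only age was left, they were highest for Ndufa10 (0.99), Slc25a3, Coq9, Ndufa9 and Atp5c1 (0.98 to 0.99). Ndufa9 and Ndufa10 encode accessory subunits of complex I, Atp5c1 the gamma subunit of ATP synthase, Slc25a3 the mitochondrial phosphate carrier and Coq9 a protein needed for coenzyme Q synthesis. With muscle means removed Mdh2 had a correlation of 0.98 with the mean of which it is part and Sucla2 the lowest, 0.66.

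Other lists of energy metabolism moved beside the members. Of 33 complex I subunits in the files, 30 fell in the gastrocnemius and 31 in both other limb muscles, 1 rose in the tibialis anterior, and 3 fell and 4 rose in the diaphragm, with median changes of -0.55 in the gastrocnemius, -0.48 in the soleus, -0.46 in the tibialis anterior and 0.02 in the diaphragm. Those called with the largest change were Ndufs7 (-0.89), Ndufb9 and Ndufs3 in the gastrocnemius, Ndufb5 (-0.74), Ndufa5 and Ndufb9 in the soleus and Ndufa8 (-0.66), Ndufs7 and Ndufs3 in the tibialis anterior. Of 12 glycolytic enzymes 11 fell in the gastrocnemius and 11 in the tibialis anterior, by a median of -0.97 and -0.86, and 6 in the soleus, by -0.14, while 1 rose in the soleus, 1 in the tibialis anterior and 2 in the diaphragm. In the gastrocnemius aldolase A (Aldoa) changed by -1.45 ± 0.14, phosphofructokinase (Pfkm) by -1.39 ± 0.13 and pyruvate kinase (Pkm) by -1.27 ± 0.15. Of 15 enzymes of fatty acid oxidation 14 fell in the soleus (median -0.61), with Etfa, Echs1 and Cpt2 at -0.78, -0.77 and -0.73, and 8 fell in both the gastrocnemius and the tibialis anterior (medians -0.19 and -0.21), where 1 and 5 rose. In the diaphragm 5 of them rose and 1 fell. Total-count scaling shifts all these limb values up by the shifts given above.

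Genes at the entry to the cycle were mixed. The list of the pyruvate dehydrogenase complex and its regulators had 13 genes, of which 8, 9 and 9 fell in the gastrocnemius, soleus and tibialis anterior and 5 in the diaphragm, and 3, 1, 3 and 1 rose. Mpc1, a subunit of the mitochondrial pyruvate carrier, changed by -0.77, -1.04 and -1.05 in the limb muscles. Of the kinases that switch the complex off, Pdk2 was called lower in the gastrocnemius (-1.15 ± 0.10) and tibialis anterior (-0.99 ± 0.11) and Pdk3 higher (0.75 ± 0.13 and 1.00 ± 0.13). Mpc2 (-0.99) and Pdp2 (-0.76), a phosphatase that switches it on, were called lower in the soleus. Among 8 feeder enzymes and carriers, Me2, the mitochondrial NAD-dependent malic enzyme, went against the cycle and was called higher in the gastrocnemius (1.77 ± 0.16), soleus (1.06 ± 0.11) and tibialis anterior (1.80 ± 0.16). Of 6 cytosolic counterparts, Got1 (-0.63) and Mdh1 (-0.62) were called lower in the gastrocnemius, Mdh1 (-1.09) in the soleus and Me1 (-0.79) in the tibialis anterior. The assembly factors of succinate dehydrogenase Sdhaf2 (-0.68 ± 0.052) and Sdhaf3 (-0.81 ± 0.30) were called lower in the tibialis anterior.

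Markers of fibre types and of other cells moved with age in the same libraries. The summed level of 8 fast-fibre genes had a median of 162705 CPM (150163 to 178278) in the gastrocnemius at 6 months and 99239 CPM (60842 to 134754) at 27 months, and of 176220 CPM (168380 to 190525) and 103376 CPM (54662 to 165475) in the tibialis anterior. In the soleus all 8 were called higher (median 1433 to 4089 CPM), and the summed slow-fibre genes went from 77376 CPM (69967 to 86386) to 50195 CPM (29592 to 90229). In the diaphragm these sums overlapped between ages, at 60099 and 58164 CPM for the fast and 31997 and 37389 CPM for the slow list. Of 6 macrophage genes 5, 1 and 5 were called higher in the gastrocnemius, soleus and tibialis anterior, with median sums of 81.6 (66.7 to 108) against 151 (122 to 209), 177 (128 to 211) against 231 (213 to 281) and 42.2 (31.9 to 50.4) against 107 (67.1 to 128) CPM, and 5 of 6 adipocyte genes were called higher in each limb muscle. Median endothelial sums were lower at 27 months in all 4 muscles, for example 324 (276 to 352) against 204 (172 to 239) CPM in the gastrocnemius, with 1 of 6 genes called lower in each limb muscle. In the diaphragm 3 of 6 fibroblast genes were called lower, and their sum had a median of 2273 CPM (1818 to 2928) at 6 and 1154 CPM (925 to 1635) at 27 months. The part of these lists in the members' changes was not tested. Of 11 genes of the circadian clock 7 to 9 were called at 27 months in each muscle, for example 6 higher and 3 lower in the diaphragm, and their part was not tested either.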

How the data were processed

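Gene-level read counts of 325 bulk libraries, 1 file per library, were used as deposited. Per the study's methods the authors prepared strand-specific libraries from total RNA after removal of ribosomal RNA, sequenced them paired-end and counted reads per gene with the ArrayStudio pipeline on the rat B6.0 genome with an in-house RefSeq-based gene model; tool versions are not given in the sources used here. These deposited counts were not normalized. Each file held 17870 gene lines, of which 1049 repeated a symbol and were summed by symbol, leaving 17315 symbols. No files held identical values.

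Groups (muscle and age) came from the sample titles. Per muscle, all 7 ages were fitted together with limma-voom (R 4.3.3, limma 3.58.1, edgeR 4.0.16 for TMM scaling and filterByExpr with a minimum count of 10 and total of 15). This left 12035 diaphragm, 11865 gastrocnemius, 12175 soleus and 11754 tibialis anterior genes. Tests were two-sided, with Benjamini-Hochberg adjustment over all genes tested; a call needed an adjusted p under 0.05 and more than 1.5-fold, and "rose" or "fell" an adjusted p under 0.05. Differences between muscles, 6 pairs, came from a fit of all 325 libraries with 12784 genes, scaled together, so they depart slightly from the subtraction of changes within muscles. Printed CPM values use this common scale. A trend needed a Bayesian information criterion gain of 6 over no trend, and a logistic course a gain of 2 over a line; a midpoint after 21 months counted as late. Every p-value measures the spread between libraries, and the labels do not tie libraries to animals.

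All 9 members are named in every muscle. From each further list at most 3 called genes per muscle with the largest change are named (some partner subunits beyond that were chosen after their values were seen, and 1 gene of their list is not reported here or counted), and the 5 genes with the highest correlation to the member mean over 28 groups. Members and lists were chosen with earlier results of these data known. Alternatives were RLE and total-count scaling, no filter, edgeR's quasi-likelihood test, DESeq2 1.42.0, sample quality weights, Bonferroni adjustment, no or a 2-fold threshold, a trend gain of 10, only 6- and 27-month libraries, and a replicate block; a library covariate and leaving out single libraries were added after the data were seen. The fits were tested on simulated counts. Promoter sequences are from RefSeq, build GRCr8, which differs from the build of the counts.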

Additional observations from a re-analysis of the deposited data

Results flagged for a closer look

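Idh2 in the gastrocnemius at 21 months had 1 library far from the rest: replicate 5, at 763 CPM, was the lowest of 9, and the next lowest stood at 1035 CPM. The gap between them was 0.543 of the whole range of the group, above the critical value of 0.493. Groups of 4 to 10 libraries occurred only in the gastrocnemius, where 27 sets of values were tested and 1 was flagged. Chance flags about 1 in 20.

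The change from 6 to 27 months differed between muscles, past both the adjusted p and 1.5-fold, in 11 tests of the difference itself, all of them higher in the diaphragm. Against the gastrocnemius the differences were 0.69 for Cs, 0.63 for Idh2, 0.71 for Ogdh, 0.63 for Sdha and 0.86 for Mdh2 on the log2 scale. Against the soleus they were 0.78 for Idh2, 0.75 for Ogdh, 0.78 for Sdhb and 0.73 for Mdh2. Against the tibialis anterior they were 0.60 for Sdha and 0.65 for Mdh2. All 11 stayed above 0 with total-count scaling and with the library score as a covariate, which had the same slope in every muscle. The numbers past 1.5-fold under these settings are given with the dependence on processing.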

How the results depend on the processing

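Of 1230 values of single members under an alternative, 1080 kept their direction and side of the threshold, 90 passed it anew, 43 no longer passed and 17 changed sign. Bonferroni adjustment and the other fold thresholds, which are in this tally, reuse the main estimates and could not change a sign. With total-count scaling 7 changes at 27 months, 4 differences of change and 4 levels changed sign. With total-count scaling no member was called at 27 against 6 months in any muscle and 0 had a trend with a call. Changes then reversed to 0.0078 for Dlst and 0.11 for Sucla2 in the gastrocnemius, and to 0.075 for Cs, 0.13 for Idh2, 0.11 for Ogdh, 0.10 for Dlst and 0.090 for Sdhb in the tibialis anterior. Differences of change reversed to -0.076 (Idh3a) and -0.018 (Sucla2) for diaphragm minus soleus and to -0.044 (Dlst) and -0.17 (Sucla2) for diaphragm minus tibialis anterior. Level differences at 6 months reversed to 0.24 (Dlst) and 0.26 (Mdh2) for diaphragm minus gastrocnemius and to 0.28 for both genes for diaphragm minus tibialis anterior. Counts of called differences of change were then 1 for diaphragm against gastrocnemius, 0 for diaphragm against tibialis anterior, 1 for gastrocnemius against soleus and 1 for soleus against tibialis anterior, and 3 levels were called between gastrocnemius and soleus. This scaling shifts all genes together by construction.

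By edgeR and by DESeq2 0 members were called in the diaphragm. By edgeR and by RLE scaling 1 difference of change was called between diaphragm and tibialis anterior. The library covariate, chosen after seeing the data, gave 0 calls in the diaphragm, 0 differences of change against the gastrocnemius and 1 against the tibialis anterior, with Mdh2 in the diaphragm at -0.015 and Sucla2 for diaphragm minus gastrocnemius at 0.10; the cause was not tested. Without a fold threshold 5, 8, 9 and 9 members were called in the 4 muscles (diaphragm first, then gastrocnemius, soleus and tibialis anterior), and with a 2-fold threshold 0 in each, as were members with a trend. Without it, differences of change numbered 9, 7 and 8 for the diaphragm against gastrocnemius, soleus and tibialis anterior, 4 for gastrocnemius against soleus, 3 for gastrocnemius against tibialis anterior and 4 for soleus against tibialis anterior. Level differences numbered 6, 8 and 7 for the diaphragm against the same muscles, 2 for gastrocnemius against tibialis anterior and 8 for soleus against tibialis anterior. For differences between muscles the share of all genes at the adjusted p alone was not computed. Leaving out single libraries, also chosen after seeing the data, left 1 called member in the diaphragm, 2 in the gastrocnemius and 2 in the tibialis anterior, and gave 4 in the soleus without replicate 9 of 27 months. Groups of more than 5 libraries were not left out one by one.

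With the replicate number as a block 1, 2, 2 and 2 members were called in the 4 muscles, and the block changed no call. The labels do not say that a number marks an animal, and the numbers were not used as a pairing because not every pair correlated over 0.1: of 468 pairs of muscles with the same number and age 260 did, over a range of -0.62 to 0.74. The median was 0.13, against -0.02 for other numbers, and 166 of 468 libraries (35.5%) correlated best with their own number, where unrelated numbers would give 8.48%. This is a hint from the data that some numbers are shared between muscles of 1 animal.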

Other observations

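The ratio of Idh2 to Idh3a reads also differed between ages. In the diaphragm it lay between 3.69 and 4.99 (median 4.15) at 6 months and between 4.73 and 6.92 (median 6.10) at 27 months. In the soleus its median was 8.83 at 6 months, 11.7 at 18 and 21 months and 7.51 at 27 months, where it spread from 5.29 to 12.8. In the tibialis anterior its median was 1.07 at 6 and 1.59 at 27 months. The ratio of Sdha to Sdhb reads had a different course in 2 limb muscles: its median was 1.65 at 6 and 2.0 at 27 months in the soleus, where the 27-month libraries (1.76 to 2.12) lay above the 6-month libraries (1.47 to 1.75), and 2.83 and 2.24 in the tibialis anterior. These ratios do not depend on the scaling of libraries, and no test was made of them.

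For single members the most alike genes over the 28 muscle-by-age means were Chpt1 (0.98) and Usp15 (0.97) for Sucla2, Rfk (0.97) and Mapk9 (0.96) for Idh3a, and Ndufa9 (0.97) and Mrpl38 (0.97) for Cs. Chpt1 encodes a choline phosphotransferase, Usp15 a deubiquitinase, Rfk the riboflavin kinase and Mrpl38 a subunit of the mitochondrial ribosome. These are correlations over groups that share libraries and scaling.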
